A study of Homo sapiens with 12 samples.

Results

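Sulfate reaches the sulfotransferases of a cell through a short supply line. Anion exchangers of the SLC26 family bring sulfate across membranes, PAPS synthases turn it into the activated sulfate donor PAPS, and carriers of the SLC35 family pass PAPS into the Golgi, where proteoglycans and secreted proteins are sulfated. Each transfer leaves PAP, a by-product that inhibits sulfotransferases and is broken down by nucleotidases. SLC26A2, the carrier named in the series title, is best known from cartilage, where its loss leaves chondroitin sulfate poorly sulfated.

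The supply line was followed through 8 genes chosen by name for their role: the carriers SLC26A2, SLC26A6 and SLC26A11, the synthases PAPSS1 and PAPSS2, the PAPS carriers SLC35B2 and SLC35B3, and the PAP nucleotidase BPNT1. The choice was made with earlier results of these data known. Each of the 8 had 1 array feature naming it alone, among 18417 genes with such a feature. Values came from 12 one-colour Affymetrix arrays of MDA-MB-231, a long-established line from a human breast cancer that lacks hormone receptors, with 4 groups of 3 arrays. The groups were parental cells without treatment, parental cells given TRAIL at 100 ng per ml for 2 hours, cells treated to resistance (TTR) without TRAIL, and TTR cells given the same TRAIL dose. TRAIL is the ligand of the death receptors TNFRSF10A and TNFRSF10B. The labels call the untreated parental arrays the baseline taken ahead of treatment and mention no time-matched vehicle. The sources used here do not name the agent that made the cells resistant, nor say whether TTR is a clone or a pool. An unexplained tag in the sample descriptions differs between parental and TTR arrays and cannot be told apart from the line. The labels do not say that replicates were separate cultures, so p-values reflect how far these arrays spread, which may be technical.

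The labelled cell type was checked against marker genes, whose levels come from different probes and are given without an order between genes. The 6 markers of mesenchymal-like breast cancer cells (VIM, CD44, AXL, CAV1, MSN and EGFR) lay between 7.47 and 11.86 on the log2 scale in all 12 arrays. The 8 luminal markers were mixed, with PGR, CDH1 and ESR1 between 2.21 and 3.87, FOXA1, EPCAM, GATA3 and ERBB2 between 3.54 and 6.02, and KRT19 between 7.59 and 8.73. Of the 5 blood cell markers, PTPRC, CD3E, ITGAM and HBB lay between 2.07 and 4.15 and CD68 between 8.95 and 9.88. Of the fibroblast and endothelial markers, PDGFRB, DCN, COL1A2, VWF and CDH5 lay between 2.12 and 4.27 and PECAM1 between 3.32 and 4.98. The parental TRAIL arrays stood apart from the other 9. Their medians over all features were 4.58 to 4.61, against 4.24 to 4.31 in untreated arrays of both lines and 4.38 to 4.40 in TTR cells with TRAIL. With TRAIL the array medians were thus higher by 0.29 in parental and 0.11 in TTR cells. The median change of single features was smaller, 0.105 in parental and 0.009 in TTR cells. What moved the medians was not tested. Changes after centring each array on its median are given below as centred values. The part of this shift in the results was not tested.

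Changes below are differences of log2 levels from a limma fit of all 12 arrays with 1 mean per group, and the value after ± is their standard error. A gene was called at an adjusted p under 0.05 (Benjamini-Hochberg over all 18417 genes), and n = 3 arrays in every group. Intervals are 95% intervals of a single change and are not adjusted for the number of genes. Levels of different genes come from different probes and are not set against each other.

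Upstream sequences of 5 of the 8 genes were found in the RefSeq promoter table of build GRCh38.p14. SLC26A2 and PAPSS1 are shown because both fell by more than 2-fold with TRAIL in parental cells and each had a single start in the table. SLC35B2 fell likewise and had 3 listed starts, of which the one with E-boxes is represented by these short stretches. The windows are the 250 bases before the start, chr5:149960508-149960757 on the plus strand for SLC26A2 and chr4:107720235-107720484 on the minus strand for PAPSS1. The SLC35B2 stretches lie on the minus strand at chr6:44257360-44257383 and chr6:44257339-44257362. Capitals mark matches on either strand to 4 motifs. They are the E-box with the letters CACGTG, the GC box with the letters GGGCGG, the CCAAT box named for its letters, and the AP-1 site, which was searched as TGANTCA. No match shown overlaps that of another motif. The motifs were chosen after these sequences were seen.
SLC26A2 upstream window: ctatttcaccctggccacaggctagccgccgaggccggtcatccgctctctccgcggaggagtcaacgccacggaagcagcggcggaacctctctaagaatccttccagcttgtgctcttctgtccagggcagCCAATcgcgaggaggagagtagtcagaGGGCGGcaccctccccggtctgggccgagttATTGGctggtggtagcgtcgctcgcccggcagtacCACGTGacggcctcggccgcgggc
PAPSS1 upstream window: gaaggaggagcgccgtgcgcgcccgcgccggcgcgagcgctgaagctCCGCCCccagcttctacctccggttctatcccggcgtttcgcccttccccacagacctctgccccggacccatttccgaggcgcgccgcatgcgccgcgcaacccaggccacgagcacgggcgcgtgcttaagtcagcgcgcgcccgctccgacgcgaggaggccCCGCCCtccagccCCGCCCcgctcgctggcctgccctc
SLC35B2 stretch, E-box 86 bases before the start: cagcgagctCACGTGaccgagccc
SLC35B2 stretch, E-box 65 bases before the start: cccccgggcCACGTGactgccgcg

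The SLC26A2 window held 1 E-box, which began 24 bases before the start, 1 GC box and 2 CCAAT boxes. The PAPSS1 window held 3 GC boxes and no match to the other motifs. An E-box was in 6.34% of all 35116 windows of this length in the table, a GC box in 42.6%, a CCAAT box in 32% and the AP-1 letters in 6.57%. None of the 9 windows of the 5 genes held the AP-1 letters. Among them an E-box was found only in the SLC26A2 window and in the SLC35B2 window shown in part. The other SLC35B2 windows, and those of PAPSS1, SLC26A6 and SLC35B3, held none. A match is a run of letters and not a measured binding site.

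Uptake was described first. SLC26A2 exchanges sulfate for other anions at the cell surface. It stood at 6.15, 6.66 and 6.14 in the untreated parental arrays and at 4.80, 5.36 and 5.19 in the parental TRAIL arrays. The TTR arrays read 6.72, 6.64 and 6.72 without TRAIL and 6.12, 6.28 and 6.49 with it. The parental TRAIL arrays were the 3 lowest of the 12 and overlapped no other group. The untreated lines overlapped, since parental array 2 lay above the lowest TTR array. In parental cells TRAIL lowered SLC26A2 by 2.30-fold (−1.20 ± 0.16, adjusted p = 4.69e-06, centred −1.49), and 9.69% of all genes had a lower change.

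SLC26A6, a broad exchanger that carries chloride, bicarbonate and oxalate as well as sulfate, moved the other way. Its parental arrays read 5.61, 5.62 and 5.64 without TRAIL and 6.32, 6.33 and 6.24 with it. The TTR arrays read 6.05, 5.93 and 6.09 without TRAIL and 6.03, 5.99 and 6.13 with it. Untreated parental arrays were lowest, parental TRAIL arrays highest, and the TTR groups overlapped each other between them. In parental cells TRAIL raised SLC26A6 by 1.59-fold (0.67 ± 0.09, adjusted p = 5.23e-06), with a centred change of 0.38 (adjusted p = 0.00118).

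SLC26A11, a sodium-independent sulfate carrier, did not pass in any comparison. Its array values ran from 4.09 to 4.90, and the 4 groups overlapped in every comparison. Its TRAIL change was 0.26 in parental cells (95% interval −0.07 to 0.60) and 0.07 in TTR cells (−0.27 to 0.41). The parental value turned to −0.03 after centring and −0.02 after quantile normalization. Among the 3 carriers, then, 1 fell, 1 rose and 1 did not pass with TRAIL in parental cells.

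PAPS synthesis came next. PAPSS1 and PAPSS2 are paralogous enzymes that each join both steps, the sulfurylation of ATP and the phosphorylation that completes PAPS. PAPSS1 read 7.07, 7.06 and 6.89 in untreated parental arrays and 5.38, 5.21 and 5.89 with TRAIL. In TTR cells it read 7.19, 7.08 and 7.27 without TRAIL and 6.75, 6.70 and 6.75 with it. Both TRAIL groups lay below both untreated groups, the parental one furthest. PAPSS1 fell 2.86-fold in parental cells (−1.52 ± 0.14, adjusted p = 6.91e-08, centred −1.81).

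PAPSS2 read 7.82, 7.89 and 7.55 in untreated parental arrays and 6.31, 5.56 and 6.13 with TRAIL. In TTR cells it read 8.75, 8.48 and 8.31 without TRAIL and 8.63, 8.52 and 8.21 with it. All 6 TTR arrays lay above all 6 parental arrays, and the TTR groups with and without TRAIL overlapped. PAPSS2 had the largest fall of the 8 genes in parental cells, 3.37-fold (−1.75 ± 0.17, adjusted p = 2.1e-07), and only 2.88% of all genes had a lower change.

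**Figure D1:**
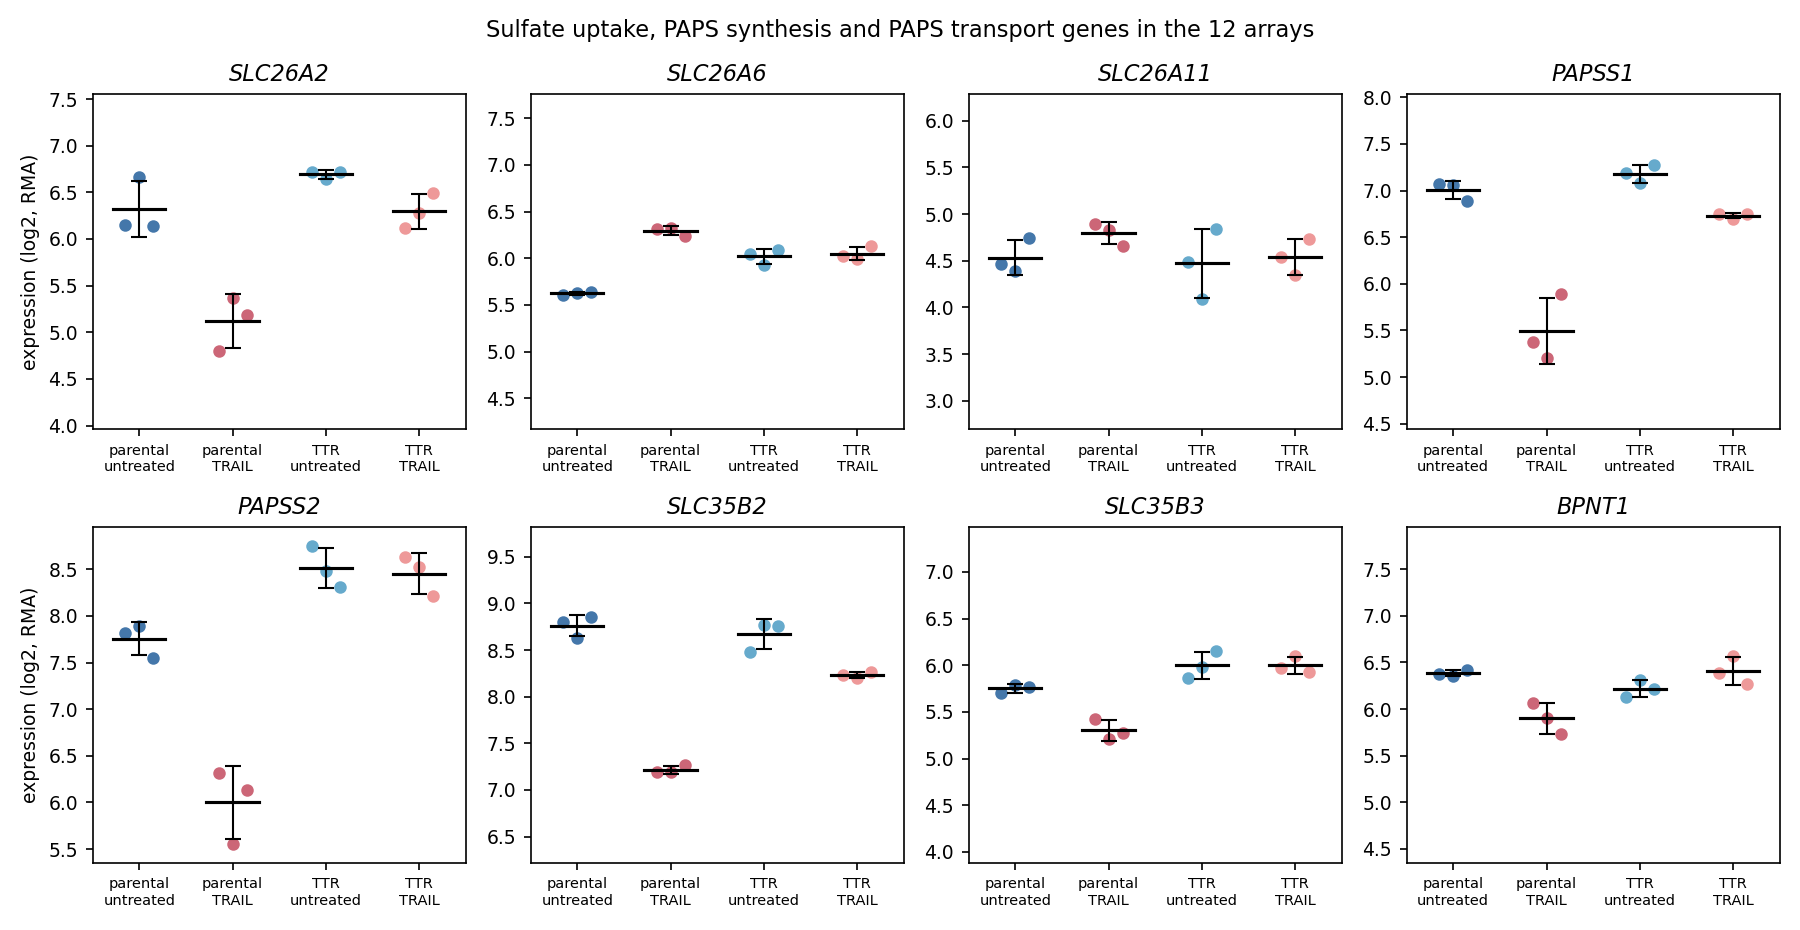
Expression (log2, RMA) of the 8 genes in the 12 arrays. Points are single arrays, bars the mean and error bars the SD of 3 arrays, and every panel spans the same number of log2 units around its own centre. Parental TRAIL arrays are lowest for SLC26A2, PAPSS1, PAPSS2, SLC35B2, SLC35B3 and BPNT1 and highest for SLC26A6.

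The PAPS carriers and the nucleotidase followed. SLC35B2, the first described PAPS carrier of the Golgi, read 8.80, 8.63 and 8.85 in untreated parental arrays and 7.19, 7.19 and 7.27 with TRAIL. In TTR cells it read 8.48, 8.77 and 8.76 without TRAIL and 8.23, 8.20 and 8.26 with it. The untreated groups overlapped, TTR arrays with TRAIL lay below them, and parental TRAIL arrays lay lowest. SLC35B2 fell 2.92-fold in parental cells (−1.54 ± 0.10, adjusted p = 1.72e-09, centred −1.83), the smallest p-value of the 8 genes there.

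SLC35B3, the second PAPS carrier, fell less, 1.37-fold (−0.45 ± 0.10, adjusted p = 0.00113). It read 5.70, 5.79 and 5.77 in untreated parental arrays and 5.42, 5.21 and 5.27 with TRAIL, without overlap. Its TTR arrays lay higher, between 5.86 and 6.16, and overlapped with and without TRAIL. BPNT1, which removes PAP in the cytosol, fell 1.40-fold in parental cells (−0.48 ± 0.11, adjusted p = 9.75e-04). It read 6.38, 6.36 and 6.42 without TRAIL and 6.07, 5.90 and 5.73 with it. In TTR cells it read 6.13, 6.31 and 6.21 without TRAIL and 6.38, 6.57 and 6.27 with it, an overlap in which the TRAIL mean was the higher. No array feature was assigned to BPNT2 alone, the PAP phosphatase of the Golgi, so it was not analysed here.

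In all, TRAIL lowered 6 and raised 1 of the 8 genes in parental cells, where limma called 58.8% of all genes, 29.9% as lower and 28.9% as higher. For these 7 genes the parental arrays with and without TRAIL did not overlap, as for 62.2% of all genes. The median change of the 8 was −0.84, against 0.05 over all genes. After centring these medians were −1.13 and −0.24, and again 6 of the 8 fell and 1 rose. Among all 18417 genes, 5508 were called lower and 5319 higher as deposited, and 8608 lower and 2328 higher after centring. Of all called genes 49.1% were higher as deposited, 21.3% after centring and 37.9% after quantile normalization. The 7 calls held in each of the 19 alternatives run for this comparison, leaving out single arrays included.

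With the same dose in TTR cells 1 of the 8 genes fell and 0 rose by limma, where 2.55% of all genes were called lower and 3.27% higher, 5.82% in all. At an unadjusted p under 0.05, 3 of the 8 passed, all lower (SLC26A2, PAPSS1 and SLC35B2), against 20.6% of all genes, 12% as lower. SLC35B2 fell 1.35-fold (−0.44 ± 0.10, adjusted p = 0.0179). It did not pass when TTR untreated array 2 (adjusted p = 0.0918) or 3 (0.0769) was left out, nor when TTR TRAIL array 1 (0.0646) or 2 (0.0855) was. The adjusted p ran from 0.00102 to 0.0918 over all alternatives. PAPSS1 stood at −0.45 ± 0.14 (adjusted p = 0.0658) and SLC26A2 at −0.40 ± 0.16 (adjusted p = 0.152). For SLC26A2, PAPSS1 and SLC35B2 the TTR arrays with TRAIL all lay below those without, as did 16.3% of all genes.

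Same-numbered TTR arrays deviated together, and the replicate number was taken to pair them. With the replicate number as a block over all 12 arrays, PAPSS1 passed (adjusted p = 0.0464, range over alternatives 0.00866 to 0.197). In a blocked fit of the 2 TTR groups alone, added after the data were seen, SLC26A2 passed too (adjusted p = 0.0258, range 0.0258 to 0.426). SLC26A2 and PAPSS1 also passed after centring (−0.50, adjusted p = 0.0417, and −0.56, adjusted p = 0.0176). Without the parental TRAIL arrays in the fit PAPSS1 passed (adjusted p = 0.00866) and SLC26A2 did not (0.0937).

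The other 5 genes lay nearer 0 in TTR cells. PAPSS2 was at −0.06 (95% interval −0.43 to 0.31), SLC35B3 at −0.002 (−0.22 to 0.21), SLC26A6 at 0.03 (−0.16 to 0.21, −0.08 after centring) and BPNT1 at 0.19 (−0.04 to 0.42). Their adjusted p, with that of SLC26A11, ran from 0.347 to 0.996. The median change of the 8 genes was −0.03, against −0.01 over all genes.

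**Figure D2:**
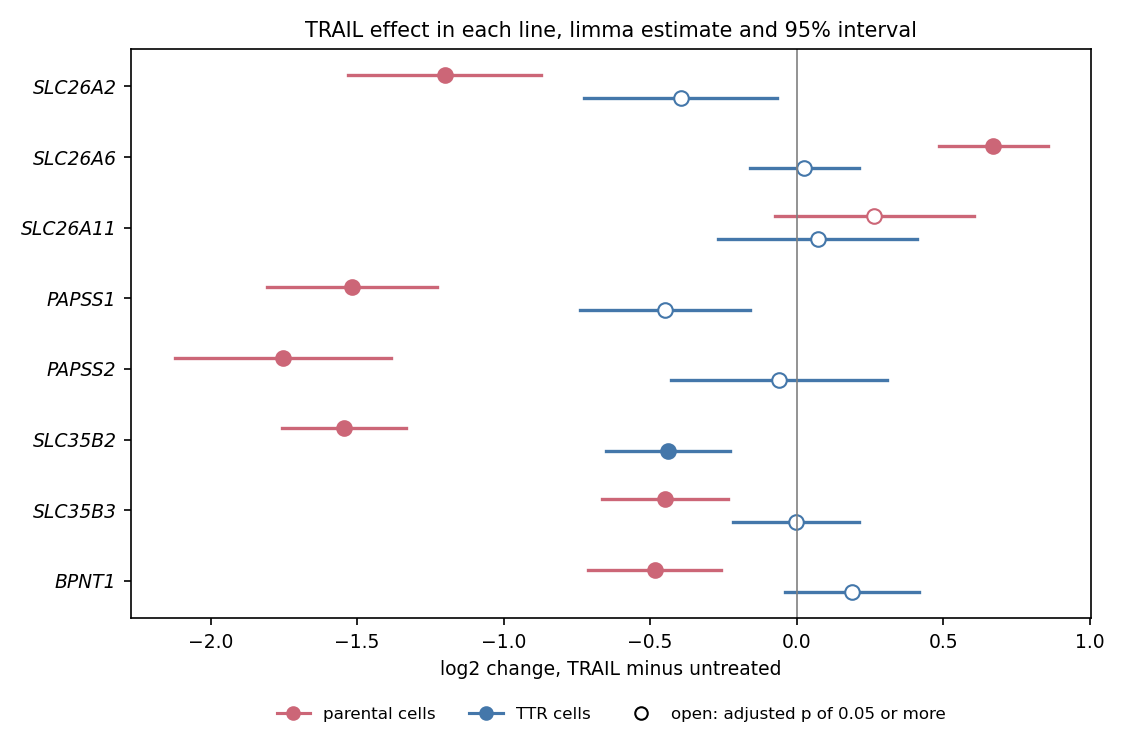
TRAIL minus untreated (log2 change) for the 8 genes in parental and in TTR cells, as limma estimates with 95% intervals that are not adjusted for the number of genes; filled points passed at an adjusted p under 0.05. In parental cells 7 points are filled, 6 of them below 0, and in TTR cells SLC35B2 alone is filled.

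The difference between the TRAIL effects, the change in TTR cells less that in parental cells, had its own test. It passed for 7 of the 8 genes, 6 above 0 and 1 below, where 37.2% of all genes passed, 22.9% above 0 and 14.3% below. PAPSS2 had the largest, 1.70 ± 0.25 (adjusted p = 4.77e-05), followed by SLC35B2 (1.11 ± 0.14), PAPSS1 (1.07 ± 0.19) and SLC26A2 (0.81 ± 0.22, adjusted p = 0.0084). BPNT1 stood at 0.67 ± 0.15 and SLC35B3 at 0.45 ± 0.14. SLC26A6, which rose in parental cells, stood at −0.64 ± 0.12 (adjusted p = 6.04e-04). SLC26A11 did not pass (−0.19 ± 0.23, adjusted p = 0.545). The SLC35B3 difference did not pass when TTR untreated array 1 (adjusted p = 0.0561) or TTR TRAIL array 2 (0.0627) was left out, and its adjusted p ran from 0.00251 to 0.0627.

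The untreated lines were then compared, TTR minus parental. Of the 8 genes 2 were higher in TTR cells and 0 lower, where limma called 7.11% of all genes, 3.64% as higher and 3.47% as lower. At an unadjusted p under 0.05, 4 of the 8 passed, all higher (SLC26A2, SLC26A6, PAPSS2 and SLC35B3), against 18.9% of all genes, 9.39% as higher. PAPSS2 was 1.69-fold higher (0.76 ± 0.17, adjusted p = 0.0129), and 99.1% of all genes had a lower difference. This call was lost without parental untreated array 3 (adjusted p = 0.0653) or TTR untreated array 1 (0.0509), over a range of 0.00185 to 0.0653. SLC26A6 was 1.32-fold higher (0.40 ± 0.09, adjusted p = 0.0099). SLC26A2 was at 0.38 ± 0.16 and did not pass (adjusted p = 0.189, 95% interval 0.05 to 0.71). SLC35B3 was at 0.25 ± 0.10, PAPSS1 at 0.17 ± 0.14, SLC26A11 at −0.06, SLC35B2 at −0.09 and BPNT1 at −0.17, with adjusted p from 0.185 to 0.908. The untreated arrays of the lines did not overlap for 5 of the 8 genes, against 24.6% of all genes. These were SLC26A6, PAPSS1, PAPSS2 and SLC35B3, higher in TTR cells as 12% of all genes were, and BPNT1, lower as 12.5% were.

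Under TRAIL the lines differed in 7 of the 8 genes, where 54.4% of all genes were called, 28% as higher in TTR cells and 26.4% as lower. This comparison shares its arrays with the others, so its values follow from theirs. PAPSS2 was 5.47-fold higher in TTR cells (2.45 ± 0.17, adjusted p = 8.65e-09), and 99.96% of all genes had a lower difference. PAPSS1 was 2.37-fold higher (1.24 ± 0.14), SLC26A2 2.27-fold (1.18 ± 0.16), SLC35B2 2.02-fold (1.02 ± 0.10), SLC35B3 1.62-fold (0.70 ± 0.10) and BPNT1 1.42-fold (0.51 ± 0.11). SLC26A6 was lower in TTR cells (−0.25 ± 0.09, adjusted p = 0.0258). That call was lost after centring (−0.04, adjusted p = 0.706), in a fit of this pair of groups (0.0554), and when parental TRAIL array 1 (0.0568) or 2 (0.0547) or TTR TRAIL array 1 (0.0722) or 2 (0.0929) was omitted. Its adjusted p ran from 0.00378 to 0.706 over the alternatives.

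**Figure D3:**
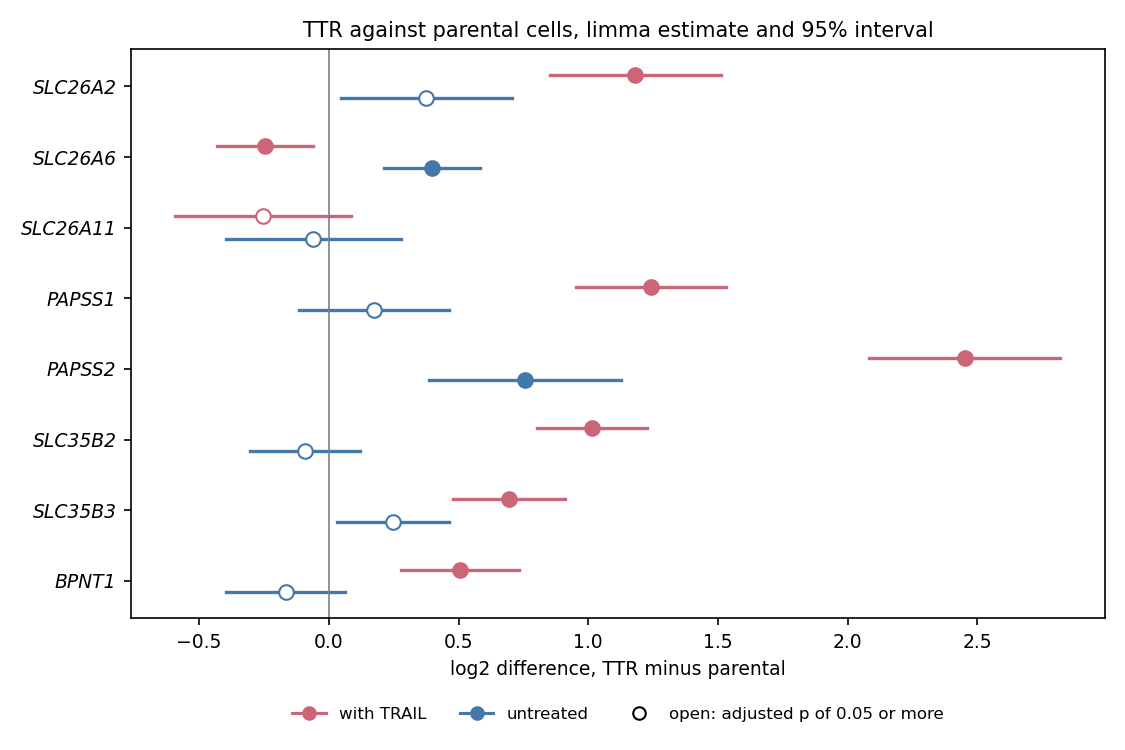
TTR minus parental cells (log2 difference) for the 8 genes, with TRAIL and untreated, as limma estimates with 95% intervals that are not adjusted for the number of genes; filled points passed at an adjusted p under 0.05. Untreated, PAPSS2 and SLC26A6 are filled; with TRAIL all but SLC26A11 are filled, PAPSS2 furthest at 2.45.

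The profiles of the 8 genes were also set against every other gene. Each gene was centred on its own mean over the 12 arrays, and likeness was the root-mean-square difference of these centred log2 values, which rests on arrays that share groups. The genes nearest to SLC26A2 were KLHDC2, a substrate receptor of a ubiquitin ligase (0.15), ACAD8 of valine breakdown (0.15), the phosphoinositide phosphatase MTM1 (0.16), the phosphorylase kinase subunit PHKB (0.16) and the transcription elongation factor TCEA1 (0.16). Their TRAIL changes were −1.16 to −1.38 in parental and −0.23 to −0.43 in TTR cells. Among the 8 genes, SLC35B3 and BPNT1 were 0.19 apart, PAPSS1 and SLC35B2 0.21, SLC26A6 and SLC26A11 0.24, and SLC26A2 and PAPSS1 0.26. The values were not scaled, so genes that vary little tend to lie close. The SD over the 12 arrays was 0.24 to 0.31 for SLC35B3, BPNT1, SLC26A6 and SLC26A11. It was 0.65 to 0.71 for SLC26A2, PAPSS1 and SLC35B2, and 1.08 for PAPSS2. PAPSS2 lay at least 0.52 from each of the others. The gene nearest to PAPSS2 was EFEMP1, an extracellular matrix protein, at 0.16. Nearest to PAPSS1 was the Golgi membrane protein YIPF6 (0.10), to SLC35B2 the mitochondrial ribosomal protein MRPL46 (0.08) and to SLC35B3 the chloride channel protein CLIC1 (0.08). Nearest to BPNT1 was the sterol regulator SREBF2 (0.09), to SLC26A6 CUEDC1 (0.08) and to SLC26A11 the DNA glycosylase NTHL1 (0.11).

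Other genes of sulfate supply and use were taken from lists of families or routes, drawn up with earlier results of these data known. The list counts are of called genes, as are these over all genes. In parental cells limma called 29.9% of all genes lower and 28.9% higher, and in TTR cells 2.55% and 3.27%. After centring these were 8608 lower and 2328 higher of 18417 in parental cells, and 1943 and 448 in TTR cells. After quantile normalization they were 5783 and 3524 in parental cells, and 507 and 449 in TTR cells. Of 8 measured SLC26 and SLC13 carriers, TRAIL in parental cells raised 2 and lowered 0 (1 raised and 1 lowered after centring, 0 and 0 after quantile normalization). SLC26A1, a sulfate and oxalate exchanger, rose (0.55 ± 0.11, adjusted p = 4.11e-04), with a centred change of 0.26 and a call that was lost after quantile normalization (adjusted p = 0.0502). SLC26A5, the motor protein of outer hair cells, was at 0.31, and its call was lost after centring (0.02, adjusted p = 0.900) and quantile normalization (adjusted p = 0.147). In TTR cells 0 of the 8 passed by limma, also at an unadjusted p under 0.05, against 5.82% and 20.6% of all genes. The adjusted count was 0 after centring and after quantile normalization too.

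Sulfate also arises inside cells from sulfur amino acids. Of 9 measured genes of that route, 7 fell and 2 rose in parental cells (median −1.26), against 29.9% and 28.9% of all genes. After centring 7 fell and 0 rose, and after quantile normalization 7 and 1. GOT2, the mitochondrial aspartate aminotransferase, fell 3.60-fold (−1.85 ± 0.12, adjusted p = 1.55e-09). SQOR, which oxidizes sulfide, fell 2.67-fold (−1.41 ± 0.10). The 2 that rose, named after their values were seen, were MPST (0.39 ± 0.09) and CDO1 (0.40 ± 0.11). In TTR cells SQOR alone of the 9 passed (−0.48 ± 0.10, adjusted p = 0.0105), where 5.82% of all genes were called. After centring 3 of the 9 fell and 0 rose in TTR cells, and after quantile normalization 1 and 0.

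Of 12 sulfatases and their activators, which remove sulfate from sugars and steroids, 5 fell and 6 rose in parental cells (median 0.16). Over all genes 29.9% were called lower and 28.9% higher. The 6 rises were 0 after centring and 2 after quantile normalization, while 5 fell under both. ARSK fell 3.66-fold (−1.87 ± 0.11, adjusted p = 4.58e-10) and the steroid sulfatase STS 2.56-fold (−1.36 ± 0.11). In TTR cells 0 of the 12 passed by limma, against 5.82% of all genes, and 2 did at an unadjusted p under 0.05, against 20.6%. ARSK was at −0.28 (adjusted p = 0.143). It was called lower after centring (−0.38, adjusted p = 0.0267) and after quantile normalization (−0.37, adjusted p = 0.0468). Of the 12 genes 2 fell after centring and 1 after quantile normalization, and 0 rose under both.

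The enzymes that spend PAPS moved in both directions. Of 36 measured Golgi sulfotransferases 22 rose and 6 fell in parental cells (median 0.42), against 28.9% and 29.9% of all genes. That balance turned to 9 and 10 after centring and was 17 and 6 after quantile normalization. HS6ST1, which sulfates heparan sulfate, rose 3.31-fold (1.73 ± 0.11, adjusted p = 1.26e-09), and HS2ST1, which acts at another position of the same chain, fell 2.69-fold (−1.43 ± 0.10). Both kept these directions and calls under both scalings. In TTR cells these were the 2 that passed, HS6ST1 at 0.59 ± 0.11 and HS2ST1 at −0.35 ± 0.10 (adjusted p = 0.0041 and 0.0488). Over all genes 5.82% were called there. After centring 4 of the 36 fell and 1 rose in TTR cells, and after quantile normalization 2 and 1. Of 10 cytosolic sulfotransferases 1 fell and 1 rose in parental cells, against 29.9% and 28.9% of all genes. After centring 4 fell and 0 rose, and after quantile normalization 1 and 0. SULT1C2 fell (−0.83 ± 0.12) and SULT2B1 was at 0.45, a call lost after centring (0.16, adjusted p = 0.340) and quantile normalization (adjusted p = 0.345). In TTR cells 0 of these 10 passed by limma, also at an unadjusted p under 0.05, the smallest p-value being that of SULT2B1 (−0.30, adjusted p = 0.252). The shares over all genes were 5.82% and 20.6%. The adjusted count of the 10 stayed at 0 after centring and after quantile normalization.

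The PAPS carriers have relatives in the SLC35 family, some of which carry nucleotide sugars. Of 17 other SLC35 genes, listed by family name and not by cargo, 13 fell and 2 rose in parental cells (median −0.53). Over all genes 29.9% were called lower and 28.9% higher. After centring 15 fell and 1 rose, and after quantile normalization 12 and 1. SLC35A5 fell 4.08-fold (−2.03 ± 0.12, adjusted p = 6.32e-10) and SLC35B4, which carries UDP-xylose and UDP-N-acetylglucosamine, 3.46-fold (−1.79 ± 0.10). The 2 that rose, named after their values were seen, were SLC35D3 (0.53 ± 0.10) and SLC35E4 (0.54 ± 0.13). In TTR cells SLC35A5 (−0.54 ± 0.12, adjusted p = 0.0141) and SLC35B4 (−0.39 ± 0.10, adjusted p = 0.039) were the 2 that passed. Over all genes 5.82% were called there. After centring 6 of the 17 fell and 0 rose in TTR cells, and after quantile normalization 3 and 0.

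**Figure D4:**
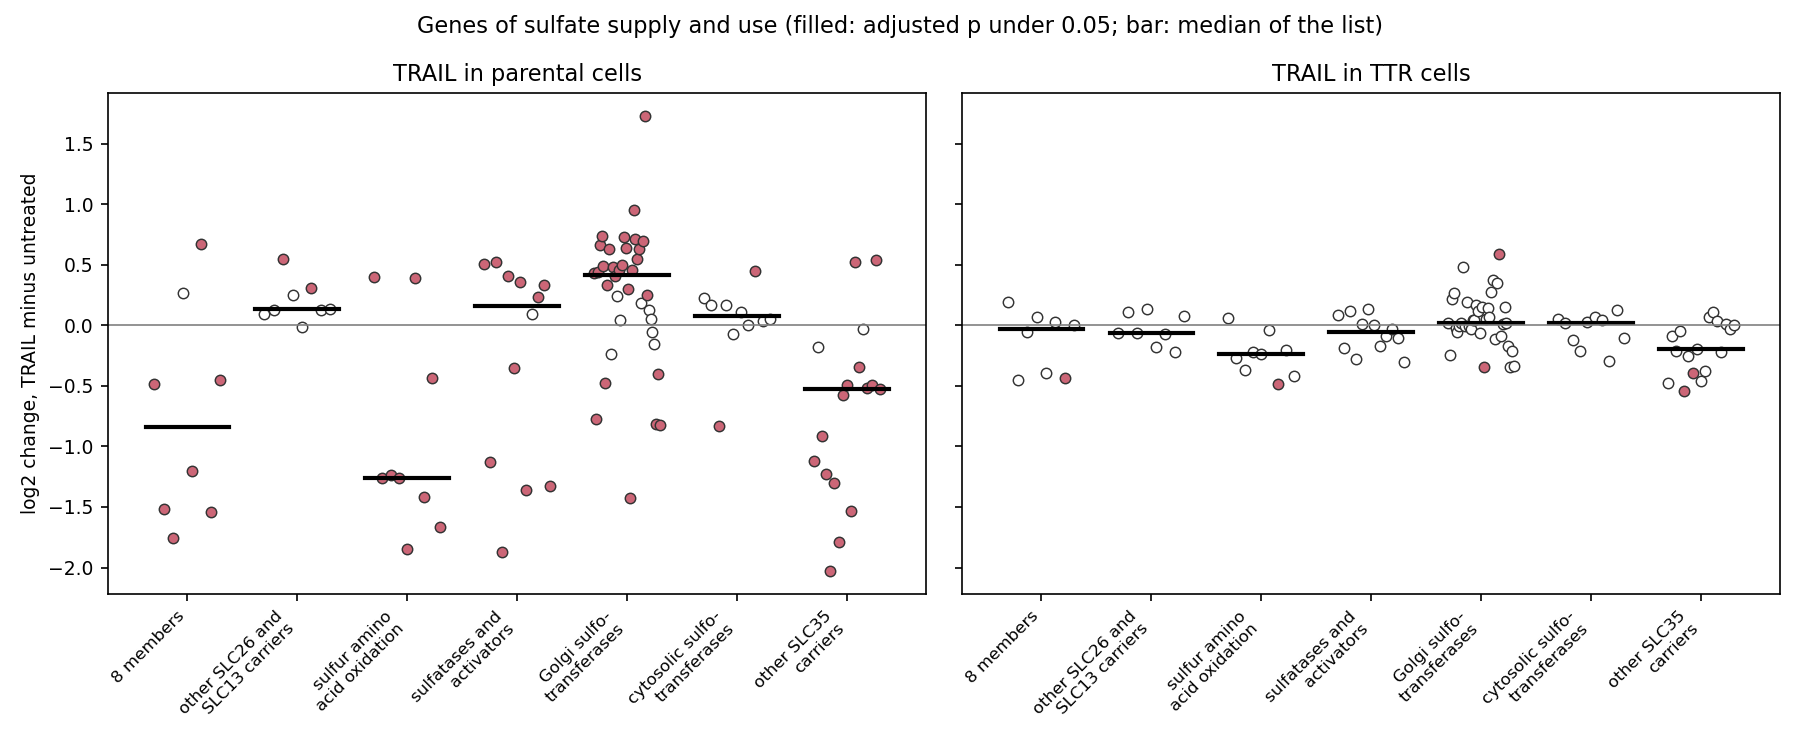
TRAIL minus untreated (log2 change) of the 8 genes and of the measured genes of the 6 other lists, in parental cells (left) and TTR cells (right). Each point is a gene, filled where its adjusted p was under 0.05, and each bar is a list median; the medians of the 8 genes are −0.84 and −0.03, those of the other SLC35 carriers −0.53 and −0.20.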

How the data were processed

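Total RNA of 12 samples was profiled on one-colour Affymetrix arrays. The authors' deposited values are log2 levels from RMA in Affymetrix Power Tools, per the submitters' processing notes. Versions and settings of that step: not given in the sources used here. The number of arrays limits the precision. No detection measure was used, so low levels can be background.

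The platform's annotation table gave gene names (19460 of 33252 features name 1 gene), and the highest-mean feature per gene was kept. Groups came from the sample titles. All 12 arrays were fitted with limma 3.58.1 in R 4.3.3 (lmFit, eBayes, two-sided, Benjamini-Hochberg). In simulated data with 200 genes changed by 1 log2 unit for TRAIL in parental cells, the fit recovered 94% of them among 18417 genes. Of its calls there 5.53% were false. The simulated noise was independent between arrays, only those 200 genes changed and no array median was shifted. The simulation therefore gives no accuracy for the present arrays. With 3 arrays a group an exact permutation p cannot be under 0.1, so none was computed. Deviations from group means of same-numbered TTR arrays correlated at 0.15 to 0.40 across genes, so the number was taken to pair them. For untreated and TRAIL parental arrays the lowest value was 0.06. Between the untreated lines same-numbered arrays correlated at −0.03 to 0.37 and differently numbered ones at −0.37 to 0.30. These overlap, so the number does not clearly pair arrays across lines, although the replicate block spanned all 4 groups.

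Named genes were the 8 members and, from each list, the 2 called genes with the smallest p, or 1 where none was called. The lists held other SLC26 and SLC13 carriers, sulfur amino acid oxidation, sulfatases, Golgi and cytosolic sulfotransferases, the Golgi PAP phosphatase and other SLC35 carriers. The members and lists were chosen with earlier results of these data known. Alternatives were centring, quantile normalization, mean of all features, a filter on low genes, fits of single comparisons, array weights, a replicate block, and leaving out arrays. Python 3.11.15 and matplotlib 3.10.9 made the figures.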

Additional observations from a re-analysis of the deposited data

Results flagged for a closer look

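The TRAIL effect differed between TTR and parental cells for 7 of the 8 genes by the interaction term of the limma fit. Over all genes 37.2% passed this test, 22.9% above 0 and 14.3% below. The differences were 0.81 for SLC26A2, 1.07 for PAPSS1, 1.70 for PAPSS2, 1.11 for SLC35B2, 0.45 for SLC35B3, 0.67 for BPNT1 and −0.64 for SLC26A6. All 7 involve the parental TRAIL arrays, whose medians over all features differ from those of the other groups, and after centring the differences were 0.99, 1.25, 1.88, 1.29, 0.63, 0.86 and −0.46 in the same order. Over all genes 6685 were called for this difference after centring, 5410 above 0 and 1275 below. The part of the shift in array medians was not tested.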

How the results depend on the processing

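Over 40 gene-by-comparison results and their 776 alternative values, 732 kept direction and side of the threshold, 14 lost a call, 11 gained one and 19 changed sign, in none of which the gene was called (0 of 19). For TRAIL in parental cells SLC26A11 turned to −0.0256 after centring and −0.0165 after quantile normalization. For TRAIL in TTR cells SLC26A6 turned to −0.0809 and −0.0525 and SLC26A11 to −0.0355 and −0.0312 under the same settings, and SLC35B3 to 0.0181 with array weights. The other 12 changes of sign came from leaving out single arrays. Over these, the changes with TRAIL in TTR cells ran from −0.0192 to 0.0587 for SLC26A6, −0.12 to 0.25 for SLC26A11, −0.16 to 0.0626 for PAPSS2 and −0.0694 to 0.0774 for SLC35B3, and the differences between untreated lines from −0.24 to 0.13 for SLC26A11 and −0.15 to 0.0035 for SLC35B2. For TRAIL in TTR cells the count of called genes among the 8 was 1. It was 3 after centring and with array weights, 2 with only the 2 groups, with the replicate block and without the parental TRAIL arrays, 3 with the block when TTR arrays alone were fitted (added after seeing the data), and 0 to 2 without single arrays. SLC26A2 there gained a call after centring (−0.50), with array weights (−0.39) and with the latter block (−0.40), and ran from −0.49 to −0.31 without single arrays. For the untreated lines the count was 2, and 1 to 2 without single arrays. The block changed no other call of the 8 genes.

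Over all genes, 1072 were called for TRAIL in TTR cells, against 2391 after centring and 3199 with array weights. The count was 1567 with the replicate block, 1709 without the parental TRAIL arrays, 2670 with the TTR block alone and 379 to 1487 without single arrays. For the untreated lines 1310 were called, against 2386 with array weights and 782 to 1553 without single arrays. Centring took the higher share of calls from 56.2% to 18.7% for TRAIL in TTR cells, from 51.6% to 74.1% between the lines under TRAIL and from 61.6% to 80.9% for the difference between effects. The causes were not tested. No detection measure told the signal of any of the 8 features from background.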

Other observations

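Among the list genes, the untreated lines also differed in some enzymes that spend PAPS or supply sulfate. By limma, HS6ST1 was lower in TTR cells (−0.63 ± 0.11, adjusted p = 0.00176) and TPST1, which sulfates tyrosines, higher (0.63 ± 0.11, adjusted p = 0.00234), the 2 called of 36 Golgi sulfotransferases. Over all genes 7.11% were called between the untreated lines. SULT1C2 was lower (−0.91 ± 0.12, adjusted p = 1.78e-04), with 3.72, 3.66 and 3.67 in TTR arrays against 4.47, 4.74 and 4.58 in parental arrays. It was the 1 called of 10 cytosolic sulfotransferases. CTH, which makes cysteine from cystathionine, was lower (−0.71 ± 0.11, adjusted p = 9.95e-04) and SQOR higher (0.50 ± 0.10, adjusted p = 0.00536). CTH and SQOR were the 2 called of 9 genes of sulfur amino acid oxidation. The 5 genes named here kept their direction and call after centring and after quantile normalization. Of the 12 sulfatases and their activators 0 were called, and of the 8 other SLC26 and SLC13 carriers 0. Of the 17 other SLC35 genes 2 were called, both lower in TTR cells.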
